A study of Mus musculus with 20 samples.

Results

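The genes described here are 10 transcription factors that B cells use to adopt, keep or act on their identity: Pax5, Ebf1, Pou2af1, Spib, Bcl11a, Bach2, Ikzf3, Foxo1, Ets1 and Tcf4. They were taken by name, as 10 of 31093 gene names on the array, and all array probes that carry one of these names were read, which gave 16 of 39429 non-control probes. The factors were measured in whole blood of male mice on a C57BL/6 background, either wild type (WT) or Il10-/-, the latter lacking the anti-inflammatory cytokine interleukin 10 and used as a model of inflammatory bowel disease. Mice of each genotype received 7 Gy of X-rays to the whole body or were sham-irradiated (0 Gy), and blood was drawn from the heart 24 h later. Each of the 4 groups holds 5 mice with 1 single-colour array each. The Il10-/- line is B6.129P2-Il10tm1Cgn/J, a disruption carried by every cell of the animal, and the mice were 8 to 10 weeks old. The question is how this set of factors stands in blood after irradiation, and whether inflammation at the outset alters that.

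B cells are built stepwise in the bone marrow. Ebf1 and Foxo1 act early, Ebf1 switches on Pax5, and Pax5 then commits the cell to the lineage. Spib, Bcl11a, Bach2, Ets1, Ikzf3 and the coactivator Pou2af1 shape the mature cell and its response to antigen, and Tcf4, an E protein, also directs plasmacytoid dendritic cells. In blood several of these genes are not restricted to B cells: Ets1, Foxo1 and Ikzf3 are also used by T cells. B cells are among the cells most easily lost after irradiation. In whole blood, fewer B cells and less RNA per B cell cannot be told apart.

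Signal is given throughout as the log2 of the processed spot intensity minus the median of its array, so that 0 is the median probe of that array and a difference of 1 is a 2-fold difference. It compares 1 probe across arrays, never different probes with each other. The lead probe of a gene is its brightest probe that passed the filters. The call for a difference needed 2 things in limma, a p below 0.001 and a Benjamini-Hochberg adjusted p below 10% over the 18587 features that passed the filters. Of the 16 probes 12 passed, at least 1 for each of the 10 genes, and the other 4 are described by their values. With 5 mice a group an exact permutation test cannot go below p = 0.0079.

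The arrays hold features that touch these results. Replicates 1 and 2 differed less than any other pair in every group, with a robust SD of their log2 differences of 0.140 to 0.229 against 0.248 to 1.09 in the other 36 pairs, although the labels list them as separate mice. Replicate 5 of the unirradiated WT mice was weak, with 29.9% of spots well above background against 34.6% to 57.8% on the other 19 arrays. The Il10 probe was well above background on 5 of 5 arrays of both groups labelled Il10-/- and on 0 of 5 arrays of both groups labelled WT, the opposite of a lost transcript. Whether the probe lies in the disrupted stretch of the gene was not analysed here, so it does not check the labels, and genotypes are given as labelled. Between the unirradiated groups, the mean of 8 neutrophil genes ran from 7.79 to 8.89 on arrays labelled Il10-/- and from 5.80 to 7.32 on those labelled WT, without overlap. Liver genes varied between arrays of a group: the mean of 15 such genes ran from -0.23 to 1.34 in unirradiated WT, from 2.08 to 10.28 in irradiated WT, from 1.48 to 8.61 in unirradiated Il10-/- and from 1.47 to 8.47 in irradiated Il10-/- mice, and their part in the results was not tested.

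After 7 Gy, 6 of the 10 factors were lower in WT mice and 7 of 10 in Il10-/- mice, and none was higher. Over all features 2.32% were called lower in WT and 5.87% in Il10-/- mice, and 4.48% and 3.29% higher. The median difference of the 10 lead probes was -2.42 in WT and -2.64 in Il10-/-, against -0.02 and -0.10 for all features, and with 3 factors set at a lower bound of their fall the Il10-/- median was -2.08. Pou2af1 and Spib fell by 2.88 and 3.19 on the log2 scale in WT and by 4.05 and 3.93 in Il10-/- mice. Bcl11a, Ebf1 and Bach2 fell by 4.34, 3.85 and 3.32 in WT, where 2, 1 and 1 of 5 irradiated arrays had them well above background. On the irradiated Il10-/- arrays these 3 were well above background on 0 of 5, so their falls are bounds, at least 13.8-fold, 5.79-fold and 4.90-fold. Ets1 fell by 1.96 in WT and by 1.87 in Il10-/- mice. Foxo1 fell in Il10-/- mice, by 1.68, and its difference of -1.19 in WT was not called. Pax5, Ikzf3 and Tcf4 were not called in either genotype. In Il10-/- mice each was called in 1 alternative, Pax5 without irradiated replicate 3 (-1.46), Tcf4 at a Benjamini-Hochberg rate under 5% alone (-0.80) and Ikzf3 with 50 added to the intensity (-0.42).

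With replicates 1 and 2 of each group averaged to 1 sample, an alternative chosen after the data were seen, 5 factors were called in WT and 7 in Il10-/- mice, Ets1 in WT being the one that was lost. Another background correction, normexp on the raw signals, left 0 of 10 called in both genotypes, and adding 50 to every intensity, also chosen after the data were seen, left 3 of 10 in WT.

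**Figure D1:**
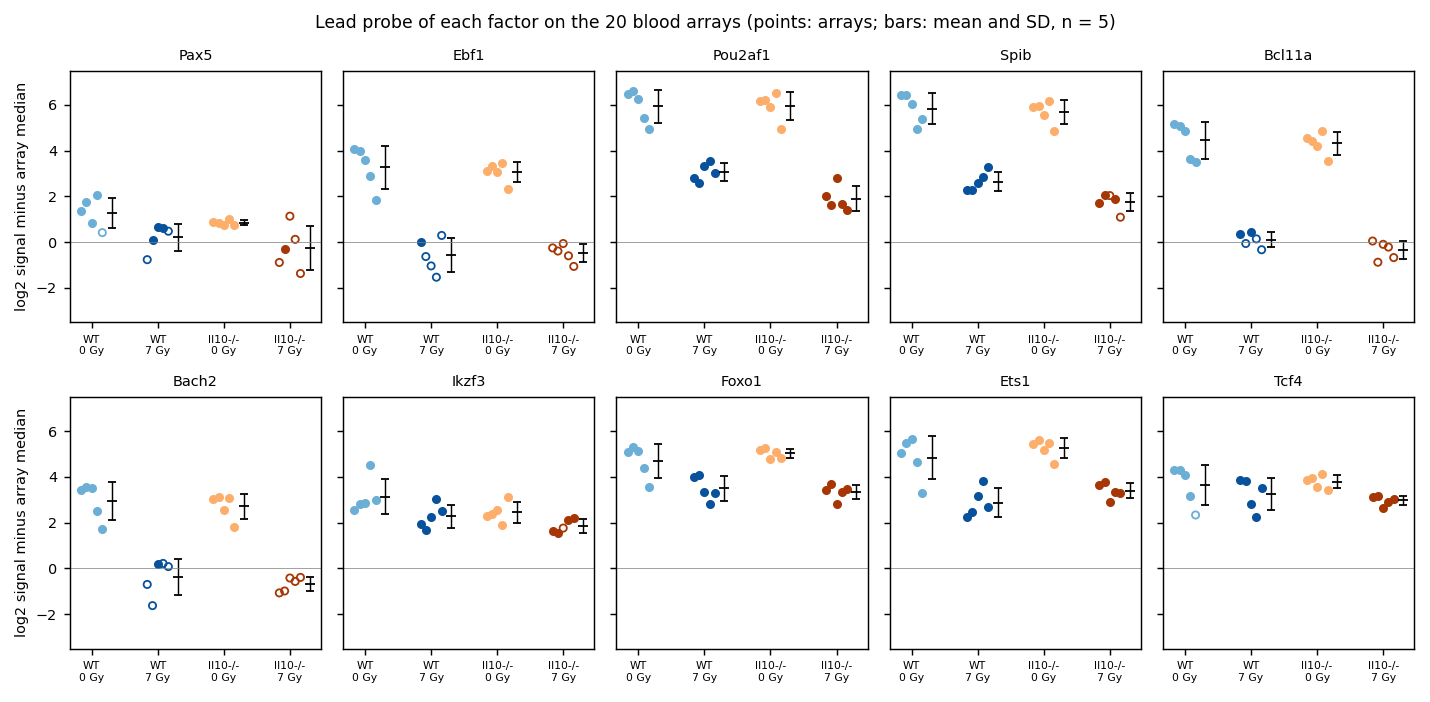
Signal of the lead probe of each factor on every array, as log2 intensity minus the array median (vertical axis), in the 4 groups (horizontal axis). Points are arrays in the order of their replicate numbers, filled where the probe was well above background, and bars are the mean and SD of 5 arrays. In Ebf1, Pou2af1, Spib, Bcl11a and Bach2 no irradiated array reaches an unirradiated one of its genotype, while the groups of Pax5 and Ikzf3 overlap in both genotypes.

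The probes of the factors that fell most are shown by their last 30 bases, 5′ to 3′, because they mark which stretch of each transcript was read. Capitals mark AATAAA, the signal for the addition of a poly(A) tail. It lies in 3 of the 16 probes, against 12.6% of all non-control probes, and in Spib it lies outside the stretch shown. Coordinates are in the build mm9, as the array's own annotation gives them, and whether they are exonic or untranslated was not analysed here. The Ebf1 probe A_55_P2065513 lies at chr11:44818438-44818497 on the plus strand, the Pou2af1 probe A_55_P2089233 at chr9:51048121-51048180 on the plus strand, and the Spib probe A_55_P2113703 at chr7:51781392-51781451 on the minus strand. The lead Bcl11a probe A_55_P1958275 lies at chr11:24073114-24073173 and the lead Bach2 probe A_66_P114768 at chr4:32673009-32673068, both on the plus strand.
Ebf1: tatctgggggatatatttattctgtattga
Pou2af1: tttgcaacattttcAATAAAgattggttag
Spib: aaaattatttctcatcaccactatacatgc
Bcl11a: tgtcttttaaaaagtgtgcttaacattgac
Bach2: agacgccatttctgttgatgaAATAAAggc

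Ebf1, the pioneer factor of the lineage, stood at 4.06, 3.99, 3.60, 2.88 and 1.83 in replicates 1 to 5 of the unirradiated WT mice and at 0.01, -0.63, -1.04, -1.53 and 0.29 in the irradiated ones. The groups did not overlap, and the probe went from well above background on 5 of 5 arrays to 1 of 5. The difference was -3.85 ± 0.50 (SE, n = 5; limma, adjusted p = 0.000295). The Il10-/- arrays read 3.10, 3.32, 3.05, 3.47 and 2.33 without and -0.25, -0.39, -0.06, -0.60 and -1.06 with irradiation. None of the 5 irradiated arrays had it well above background, so the fall of 3.53 ± 0.28 (SE, n = 5; limma, adjusted p = 1.12e-05) is a bound, at least 5.79-fold lower. Such a bound sets the bright group's mean against the lowest signal that counts as well above background on the dim arrays, or the probe's own signal where that is higher.

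Pou2af1, which encodes the B-cell coactivator OCA-B of the octamer-binding proteins, remained well above background on all 20 arrays, so its values are measured on both sides. In WT mice it read 6.49, 6.62, 6.24, 5.43 and 4.96 at 0 Gy and 2.80, 2.61, 3.35, 3.53 and 3.04 at 7 Gy. The mean fell from 5.95 ± 0.72 to 3.07 ± 0.38 (SD, n = 5), a 7.37-fold lower signal (limma, adjusted p = 0.000617). Its Il10-/- values were 6.18, 6.20, 5.90, 6.51 and 4.96 at 0 Gy and 2.00, 1.61, 2.80, 1.69 and 1.39 at 7 Gy. The mean there fell from 5.95 ± 0.59 to 1.90 ± 0.55 (SD, n = 5), a 16.6-fold lower signal (limma, adjusted p = 1.85e-05). The unirradiated groups overlap, and 4 of the 5 irradiated Il10-/- arrays lay below the lowest irradiated WT array, which read 2.61. The responses of the genotypes were not called different (limma, adjusted p = 0.688).

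Spib, an ETS factor of B cells and plasmacytoid dendritic cells, went the same way. Its WT values were 6.43, 6.43, 6.04, 4.94 and 5.37 without irradiation and 2.27, 2.28, 2.57, 2.86 and 3.28 with it, a 9.12-fold lower mean (difference -3.19 ± 0.41, SE, n = 5; limma, adjusted p = 0.000291). Its Il10-/- values were 5.91, 5.97, 5.57, 6.16 and 4.85 against 1.71, 2.04, 2.04, 1.90 and 1.09, a 15.3-fold lower mean (difference -3.93 ± 0.29, SE, n = 5; limma, adjusted p = 8.70e-06), with 3 of 5 irradiated arrays well above background. All 5 irradiated Il10-/- arrays lay below the lowest irradiated WT array, which read 2.27. How many of all features do so was not counted, and the responses of the genotypes were not called different (limma, adjusted p = 0.706).

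Bcl11a, a zinc finger repressor needed for early B cells and for plasmacytoid dendritic cells, had the largest fitted difference of the 10 lead probes in WT. In WT mice it stood at 5.17, 5.10, 4.85, 3.63 and 3.52 at 0 Gy and at 0.38, -0.06, 0.43, 0.14 and -0.33 at 7 Gy. The difference was -4.34 ± 0.43 (SE, n = 5; limma, adjusted p = 2.18e-05), a 20.3-fold lower mean with 2 of 5 irradiated arrays well above background. The Il10-/- arrays stood at 4.55, 4.41, 4.19, 4.88 and 3.55 at 0 Gy and at 0.05, -0.88, -0.09, -0.21 and -0.67 at 7 Gy. No irradiated Il10-/- array had it well above background, and the signal was at least 13.8-fold lower (limma, adjusted p = 3.08e-06).

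Bach2, a repressor that holds back plasma cell formation, read 3.43, 3.56, 3.53, 2.53 and 1.71 in unirradiated WT mice and -0.70, -1.62, 0.20, 0.22 and 0.08 in irradiated ones. Its difference was -3.32 ± 0.49 (SE, n = 5; limma, adjusted p = 0.000651), with 1 of 5 irradiated arrays well above background. The Il10-/- values were 3.06, 3.11, 2.56, 3.07 and 1.82 against -1.07, -0.98, -0.42, -0.57 and -0.39. With 0 of 5 irradiated arrays well above background there, the signal was at least 4.90-fold lower (limma, adjusted p = 2.04e-05).

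The 5 remaining factors had smaller fitted differences. Ets1, an ETS factor shared by B and T cells, read 5.07, 5.48, 5.67, 4.67 and 3.32 in unirradiated and 2.26, 2.46, 3.16, 3.83 and 2.68 in irradiated WT mice. The groups overlap through the weak unirradiated replicate 5, and the difference of -1.96 ± 0.48 (SE, n = 5; limma, adjusted p = 0.0136) was called by a narrow margin. Leaving out 1 array at a time ended that call in 8 of 10 cases, with differences of -2.34 to -1.76, and the call stood without WT 0 Gy replicate 5 and without WT 7 Gy replicate 4. Ets1 in Il10-/- mice read 5.45, 5.62, 5.19, 5.51 and 4.57 against 3.64, 3.78, 2.93, 3.35 and 3.29, with no overlap, and fell by 1.87 ± 0.26 (SE, n = 5; limma, adjusted p = 0.000656).

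Foxo1, a forkhead factor that drives recombinase genes in developing B cells and homing genes in naive lymphocytes, was well above background on all 20 arrays. Its WT values were 5.08, 5.32, 5.13, 4.38 and 3.56 at 0 Gy and 3.98, 4.10, 3.34, 2.80 and 3.29 at 7 Gy. These groups overlap, and the difference of -1.19 ± 0.43 (SE, n = 5; limma, adjusted p = 0.0755) was not called, though it was called after quantile (-1.53) and 75th percentile scaling (-1.42). Its Il10-/- values were 5.18, 5.26, 4.80, 5.09 and 4.85 against 3.41, 3.69, 2.84, 3.36 and 3.47, without overlap, and fell 3.20-fold (limma, adjusted p = 0.000454).

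Tcf4 read 4.30, 4.32, 4.10, 3.17 and 2.34 in unirradiated and 3.89, 3.83, 2.83, 2.27 and 3.51 in irradiated WT mice, a difference of -0.38 with a 95% interval of -1.40 to 0.63. Tcf4 in Il10-/- mice read 3.86, 3.95, 3.57, 4.13 and 3.43 against 3.13, 3.16, 2.66, 2.93 and 3.06. These groups do not overlap, and the difference of -0.80 ± 0.22 (SE, n = 5; limma, adjusted p = 0.0229) was not called, its unadjusted p being above 0.001. Siglech, a surface receptor that defines plasmacytoid dendritic cells, stood at 10.09 ± 0.45 and 9.48 ± 0.22 in WT and at 10.25 ± 0.25 and 9.77 ± 0.67 in Il10-/- mice (SD, n = 5), without and with irradiation. None of the 7 tested markers of these cells was called lower in either genotype, and 1 was called higher in Il10-/- mice. Over all features 2.32% were called lower in WT and 5.87% in Il10-/- mice, and 3.29% higher in Il10-/- mice. Counts this small do not set the markers apart from other features.

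Ikzf3, the Ikaros family factor Aiolos, differed by -0.87 ± 0.44 in WT and by -0.60 ± 0.26 in Il10-/- mice (SE, n = 5; limma, adjusted p = 0.205 and 0.126). The 95% intervals ran from -1.80 to 0.06 and from -1.17 to -0.03, so that a fall of the size seen in the 5 factors above lies outside them. Its highest value, 4.50, was in unirradiated WT replicate 4, where the other 4 arrays of the group lay between 2.57 and 2.99.

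Pax5 gave little signal on this platform. Its lead probe was well above background on 4 of 5 unirradiated and 3 of 5 irradiated WT arrays, and on 5 and 1 of 5 Il10-/- arrays. The differences were -1.07 ± 0.43 in WT and -1.12 ± 0.39 in Il10-/- mice (SE, n = 5; limma, adjusted p = 0.108 and 0.0605), and neither was called. With a mean of 1.28 ± 0.67 (SD, n = 5) in unirradiated WT mice the probe had little room to fall, and a larger change in Pax5 was not detectable at this signal.

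**Figure D2:**
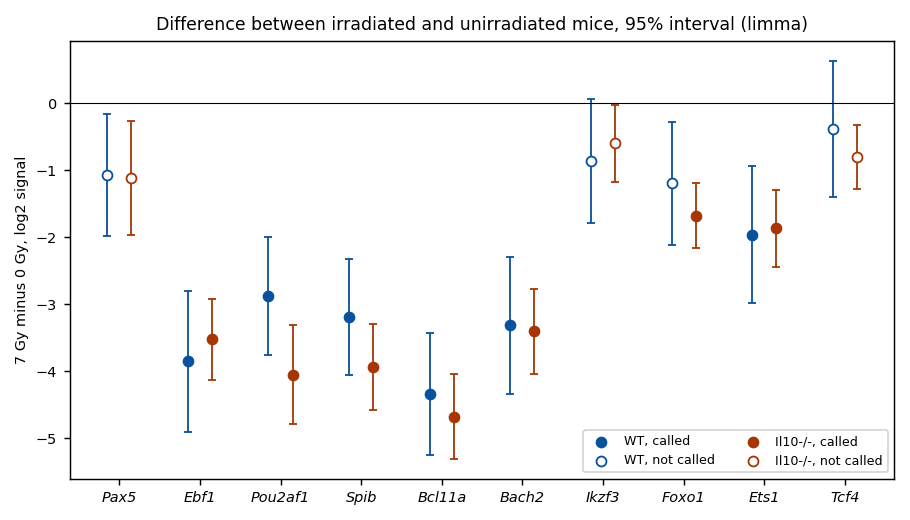
Difference between irradiated and unirradiated mice on the log2 scale (vertical axis) for the lead probe of each factor (horizontal axis), with its 95% interval from limma, in WT (blue) and Il10-/- mice (brown). Filled points were called. Ebf1, Pou2af1, Spib, Bcl11a and Bach2 lie at or below -2.88 in both genotypes, those of Ebf1, Bcl11a and Bach2 in Il10-/- mice resting on irradiated signals not well above background, and the other 5 at or above -1.96.

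On the order of the 4 groups, Ebf1, Pou2af1, Spib, Bcl11a and Bach2 had both unirradiated groups on top, with no called difference between them, and both irradiated groups below. Of the 10 factors 5 had irradiated arrays entirely below unirradiated ones in WT, where 4.26% of features did, and 8 had them in Il10-/-, where 10.9% of features did. Within the 5 slides, each of which holds 1 array of every group, the 7 Gy array lay below the 0 Gy array on 5 of 5 slides for Ebf1, Pou2af1, Spib, Bcl11a, Bach2, Foxo1 and Ets1 in both genotypes. Ikzf3 in WT and Tcf4 in Il10-/- mice, both uncalled, also lay below on 5 of 5 slides. The share of all features that do so was not counted. The within-slide differences ran from -5.16 to -3.48 for Bcl11a and from -3.02 to -0.64 for Ets1 in WT mice, and from -5.29 to -4.23 and from -2.26 to -1.28 in Il10-/- mice, those of Bcl11a there being to signals not well above background. For Pax5, the slides gave 4 of 5 below 0 in both genotypes.

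For 6 of the factors there is a second probe, which was read beside the lead probe. For Bcl11a both probes went the same way. The second, A_55_P1988872 at chr11:24068355-24068414, was designed to another transcript variant. The background filter removed it, as it was marked as non-uniform or not significantly above background on 6 of 20 arrays. It was well above background on 0 of 5 irradiated arrays of either genotype. It read 4.00, 3.89, 3.79, 2.51 and 0.78 in unirradiated and -0.78, -1.51, -0.90, -2.09 and -1.83 in irradiated WT mice, at least 9.77-fold lower. The Il10-/- arrays read 3.45, 3.32, 3.15, 3.79 and 2.67 against -2.10, -2.25, -0.67, -1.22 and -1.68, at least 7.19-fold lower. Neither pair of groups overlapped (exact permutation test, 2-sided, p = 0.00794 for both). The last 30 bases of both Bcl11a probes are set side by side here since they read separate stretches of the gene.
Bcl11a, lead probe: tgtcttttaaaaagtgtgcttaacattgac
Bcl11a, second probe: tacacccattttgtccctttattgaaaaaa

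The Ets1 probes lie 2975 bases apart and were both well above background on all 20 arrays. The second, A_52_P232830, differed by -1.57 ± 0.42 in WT and by -1.08 ± 0.28 in Il10-/- mice (SE, n = 5; limma, adjusted p = 0.0206 and 0.0178), and was not called in either, so the Ets1 call rests on the lead probe. Their last 30 bases are given for that reason.
Ets1, lead probe: tacgtacattccaaagacgtttcaaggaac
Ets1, second probe: gccgtggccttcgctactattatgacaaaa
Both Foxo1 probes gave similar sizes. The second, A_52_P453884, differed by -1.33 ± 0.52 in WT, not called, and by -1.71 ± 0.25 in Il10-/- mice, called (SE, n = 5; limma, adjusted p = 0.0987 and 0.000858). The second probes of Pax5 and Bach2 were not well above background on any array, and that of Tcf4 on 2 of 20, so their values say nothing on the change.

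**Figure D3:**
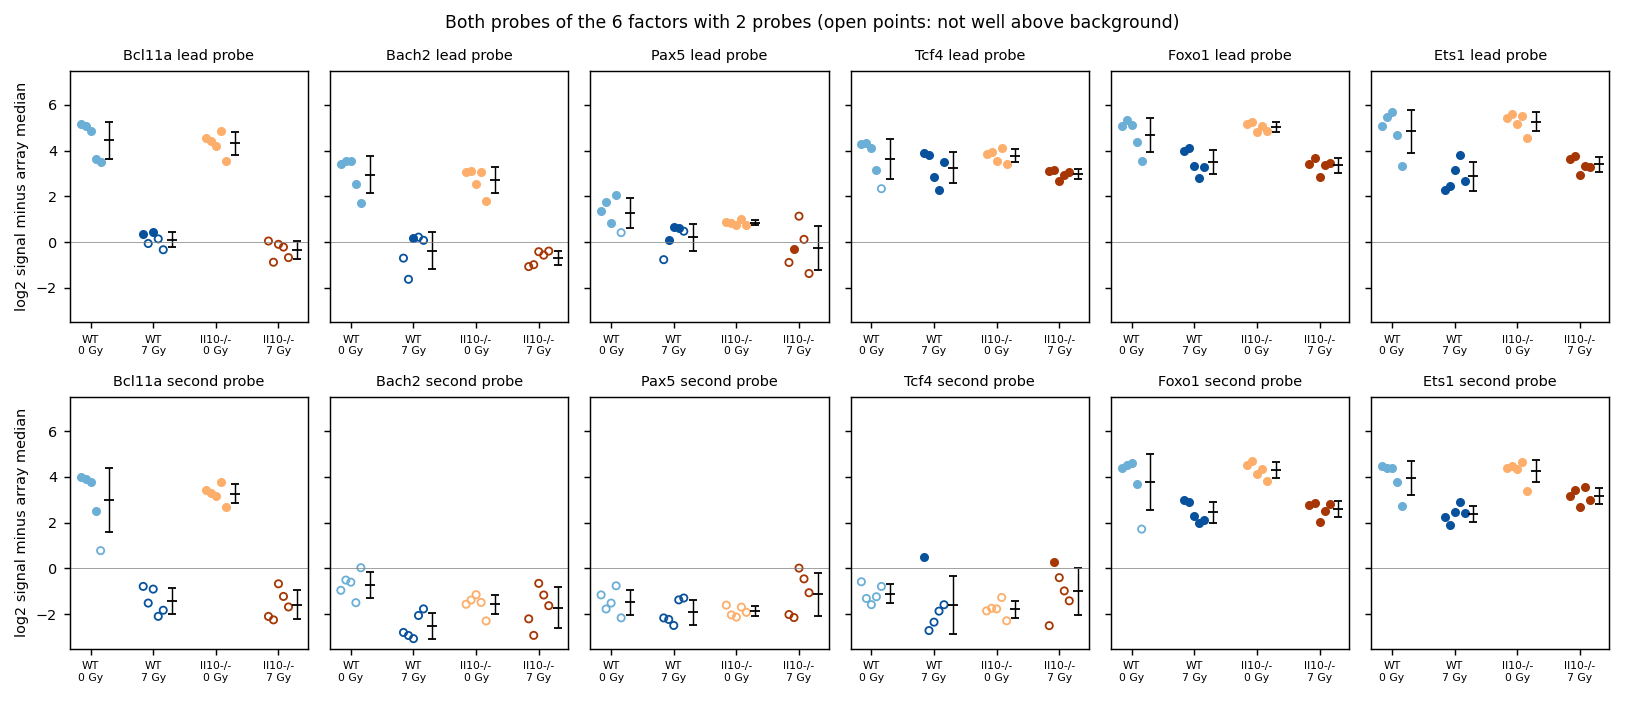
Signal of both probes of the 6 factors with 2 probes, as log2 intensity minus the array median (vertical axis), by group (horizontal axis). Points are arrays, open where the probe was not well above background, and bars are the mean and SD of 5 arrays. The second Bcl11a probe is at or below -0.67 on every irradiated array, and the second probes of Pax5 and Bach2 are open throughout.

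Without irradiation none of the 10 factors was called between the genotypes, where 0.845% of features were called, all of them higher in Il10-/-. The unadjusted p was under 0.05 for 0 of 10 factors, against 2991 of 18587 features. The lead probes had a median difference of -0.14, Il10-/- minus WT, beside 0.36 for all features. Pou2af1 stood at 5.95 in both genotypes, with a 95% interval of the difference from -0.90 to 0.91. The intervals were -1.16 to 0.72 for Ebf1, -1.02 to 0.72 for Spib, -1.05 to 0.77 for Bcl11a and -1.15 to 0.69 for Bach2. With array-median scaling they reach just past a 2-fold lower signal in Il10-/- mice and stay short of a 2-fold higher one. Under the alternatives these differences went as low as -0.57, -0.64, -0.60 and -0.58, in that order, and that of Pou2af1 as low as -0.46. Intervals under the alternatives are not given here, so the 2-fold limits hold for this scaling only. Cd79b, a chain of the B-cell receptor, stood at 8.73 ± 0.67 in WT and 8.49 ± 0.62 in Il10-/- mice (SD, n = 5).

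The responses of the genotypes were compared through an interaction term, fitted over the 20 arrays together. This called 0% of all features, and 0 of the 10 factors. At an unadjusted p under 0.05 there were 1301 features and 1 factor, Pou2af1, which fell further in Il10-/- mice by 1.17 ± 0.53 (SE; limma, adjusted p = 0.688). For Spib the difference of the responses was -0.75 with a 95% interval of -1.76 to 0.27, for Bcl11a -0.34 with -1.39 to 0.71, and for Ebf1 0.33 with -0.88 to 1.54. The last 2 use irradiated Il10-/- signals that were not well above background. Foxo1, called in Il10-/- mice alone, had a difference of -0.49 with an interval of -1.48 to 0.50, so its responses were not shown to differ. Both comparisons with radiation use the same arrays as this test.

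The factors were also read against B-cell surface genes on the same arrays, an analysis added after the data were seen. The mean of 7 markers, among them Cd79a, Cd79b, Ms4a1 and Cr2, fell by 3.04 in WT and by 3.10 in Il10-/- mice, and all 7 were called lower in both. Cd79b went from 8.73 ± 0.67 to 5.68 ± 0.34 in WT and from 8.49 ± 0.62 to 4.92 ± 0.30 in Il10-/- mice (SD, n = 5). In all 20 such differences were tested by exact permutation, 2-sided, each with a smallest possible p of 0.0079 and no adjustment over them. These tests, and those of the second Bcl11a probe, are given only with replicates 1 and 2 counted as separate mice.

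Relative to these markers Bcl11a fell further in WT mice, by 1.30, without overlap (exact permutation test, p = 0.00794), and by 1.13 when signals not well above background were raised to the lowest signal well above it on their array (exact permutation p = 0.00794). With that floor, chosen after the data were seen, its Il10-/- change was -0.70 with overlapping groups (exact permutation p = 0.0714), so a further fall there was not shown. The B-cell genes Tnfrsf13c and Fcer2a differed by -4.61 and -5.09 in WT mice, where Bcl11a differed by -4.34. Fcer2a is itself 1 of the 7 markers. A fall beyond the marker mean in WT mice is thus not particular to Bcl11a, and its size depends on the markers. Spib and Pou2af1 changed by -0.15 and 0.16 relative to the markers in WT mice, with overlapping groups (exact permutation p = 0.317 and 0.206). After irradiation of Il10-/- mice Spib fell further than the marker mean by 0.84 and Pou2af1 by 0.96 (exact permutation p = 0.00794 and 0.0159). Spib was well above background on 3 of 5 irradiated arrays there. The median of the 7 marker differences in Il10-/- mice was -3.56, a larger fall than that of their mean, so the size of both further falls depends on the markers. Ebf1 and Bach2 were well above background on 1 of 5 irradiated WT arrays and 0 of 5 Il10-/- ones, and Pax5 on 3 and 1 of 5, so their place beside the markers was not measurable. Ets1, Foxo1, Ikzf3 and Tcf4 rose relative to the markers in both genotypes, by 1.08 to 2.66 (exact permutation p = 0.00794 in each). A ratio to the markers shows unequal change only. It does not show that a factor kept its level. Of the markers, Fcer2a was itself well above background on 0 of 5 irradiated Il10-/- arrays.

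**Figure D4:**
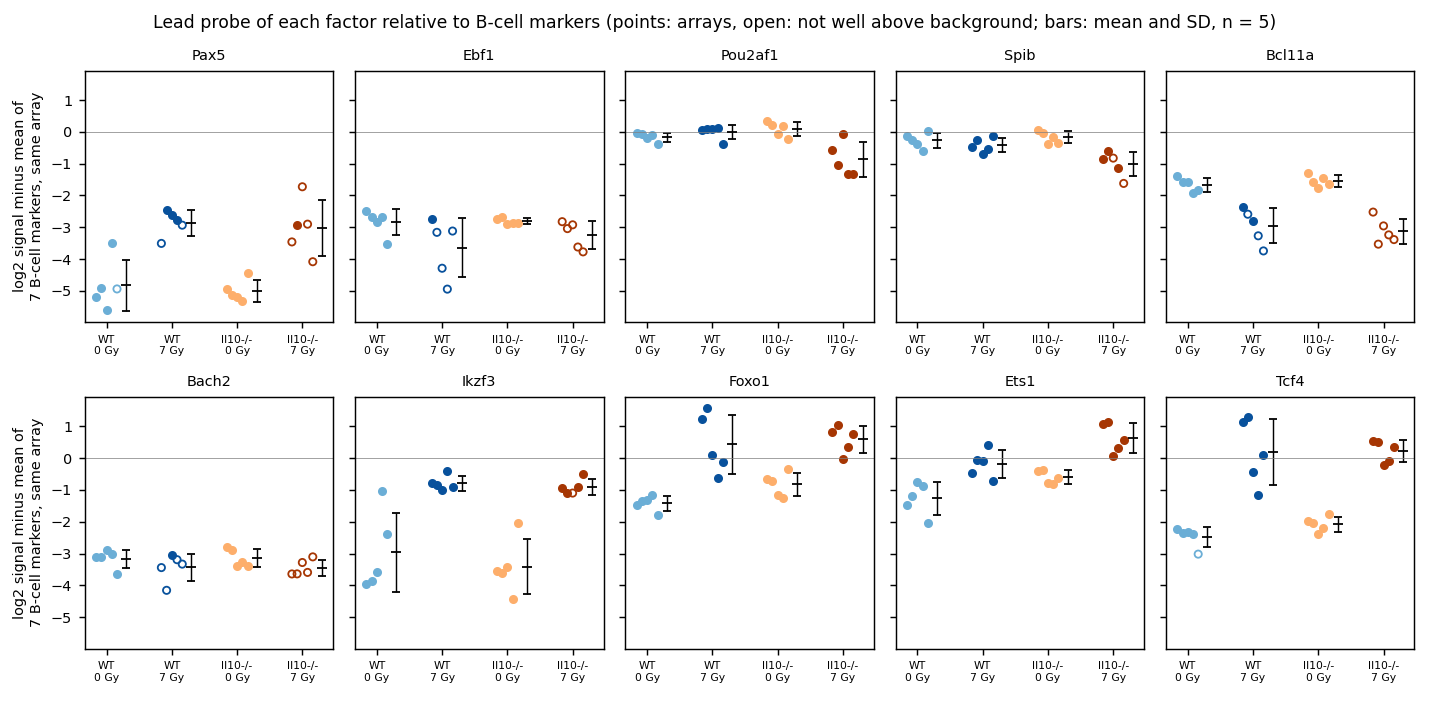
Signal of the lead probe of each factor minus the mean of 7 B-cell markers on the same array, on the log2 scale (vertical axis), by group (horizontal axis). Points are arrays, open where the probe was not well above background, and bars the mean and SD of 5 arrays. Bcl11a moves down in WT mice, its irradiated Il10-/- points are all open, and Tcf4 moves from between -3.02 and -1.77 at 0 Gy to between -1.15 and 1.29 at 7 Gy.

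The factors were then set beside 4 lists of related genes. For the counts that follow, the shares over all features were 2.32% called lower in WT and 5.87% in Il10-/- mice. The shares called higher were 4.48% and 3.29%. Of 29 tested regulators that also act in B cells, 4 were called lower in WT and 8 in Il10-/- mice, and none higher, with median differences of -0.55 and -0.71. In WT mice the largest falls among those called were those of Lef1, a factor of Wnt signalling used by lymphocyte precursors and T cells, by 2.30 ± 0.48, and of Pou2f2, the octamer-binding protein that Pou2af1 joins, by 2.00 ± 0.47 (SE, n = 5; limma, adjusted p = 0.0055 and 0.0107). Myb differed by -1.80 there and was not called. In Il10-/- mice Irf8, an interferon regulatory factor of B cells and dendritic cells, fell by 2.02 ± 0.26 and Pou2f2 by 2.01 ± 0.26 (SE, n = 5; limma, adjusted p = 0.000338 and 0.000337). Myb, a factor of blood cell precursors, was well above background on 0 of 5 irradiated Il10-/- arrays and was at least 1.37-fold lower there (limma, adjusted p = 0.00136). The count in WT rests on single arrays: it ran from 1 to 7 when 1 array was left out and was 0 with replicates 1 and 2 averaged. It was 1 without unirradiated replicate 1, 2 or 3 or irradiated replicate 1, 2 or 3, and 7 without unirradiated replicate 5. The Il10-/- count was 5 without unirradiated replicate 2 or 4 or irradiated replicate 1 or 2, and 4 with replicates 1 and 2 averaged. Id2, an inhibitor of E proteins, and Runx1 differed by 1.12 and 0.96 in WT and by 0.64 and 0.83 in Il10-/- mice, and Bhlhe41 by 0.68 and 0.99, none of them called.

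The next list holds genes of the B-cell programme that these factors act on. Of 20 tested, 17 were called lower in WT and 19 in Il10-/- mice, none higher, with medians of -2.90 and -3.16. The counts were 0 in both after normexp, and 10 in WT with 50 added. This list holds all 7 of the B-cell markers above, and it was chosen with earlier results of these data known. Ccr6, Vpreb3, Fcmr, H2-Ob, Tnfrsf13c and Cd79a in it are also in the study's exposure classifiers, which were selected from these same arrays. The counts are therefore no independent support for a fall of the factors' targets. Ccr6, a chemokine receptor of B cells and some T cells, fell by 5.35 in WT and 5.70 in Il10-/- mice, and Vpreb3, a protein of the pre-B-cell receptor pathway, by 5.24 and 5.77. Fcer2a, the low-affinity IgE receptor, fell by 5.09 in WT, and Fcmr, the IgM receptor, by 5.36 in Il10-/- mice. The smallest changes were those of Cd22 (-1.84 and -1.54), of the interleukin 7 receptor Il7r (-1.45 in WT, not called, and -1.21 in Il10-/-) and of Cplx2 (0.51 and 0.50, not called).

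Of 15 genes listed as factors of the T lineage, 1 was called lower in WT and 3 in Il10-/- mice, with medians of -0.73 and -0.51. The WT count was 2 without unirradiated replicate 5 and with each of the 4 other scalings, and 0 with 50 added. The Il10-/- count was 1 with the slide as a replicate block, with all 4 groups in 1 fit and with replicates 1 and 2 averaged, and both counts were 0 after normexp. Tcf7, which marks naive and memory T cells, fell by 2.68 ± 0.51 in WT and by 2.42 ± 0.26 in Il10-/- mice (SE, n = 5; limma, adjusted p = 0.00305 and 9.45e-05). Bcl11b, the T-cell relative of Bcl11a, differed by -1.38 in WT, not called, and fell by 1.05 in Il10-/- mice. Themis, a T-cell signalling protein rather than a transcription factor, was 1 of the 3 called lower in Il10-/- mice. Its signal was at least 1.27-fold lower, with 0 of 5 irradiated arrays well above background. Satb1 differed by -1.43 in WT without a call. Tbx21 and Runx3 were among the 3 highest values in WT, at 0.41 and -0.14. Tbx21, Ikzf2 and Gata3 had the highest in Il10-/-, at 0.14, -0.08 and -0.13, none of these called. Of 8 T-cell markers tested, 1 was called lower in each genotype, and Cd3e, which defines T cells, stood at 7.35 ± 0.66 and 6.87 ± 0.71 in WT and at 7.63 ± 0.15 and 7.35 ± 0.35 in Il10-/- mice (SD, n = 5), without and with irradiation.

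None of 14 myeloid factors was called lower, though 1 was in Il10-/- mice after quantile scaling or without irradiated replicate 4 and 2 were at a Benjamini-Hochberg rate under 5% alone, and 2 were called higher in WT mice, among them Cebpa, by 2.36 ± 0.51 (SE, n = 5; limma, adjusted p = 0.00648). In Il10-/- mice Cebpa differed by 1.01, not called. Cebpb differed by 1.64 in WT, and Jun by 0.93 in Il10-/- mice. The lowest values were those of Bcl3 (-0.68), Egr2 (-0.31) and Fos (-0.10) in WT and of Fos (-1.21), Bcl3 (-1.03) and Cebpe (-0.94) in Il10-/- mice, none called. Cebpa and Cebpb are also liver factors, and 8 of 13 tested liver genes were called higher in irradiated WT mice and 0 of 13 in irradiated Il10-/- mice. Heart muscle genes were called higher for 0 of 7 in WT and 5 of 7 in Il10-/- mice. The part of either tissue in these results was not tested. The neutrophil gene S100a8 stood at 9.63 ± 1.00 and 9.80 ± 0.32 in WT and at 11.98 ± 0.72 and 10.89 ± 0.94 in Il10-/- mice (SD, n = 5), without and with irradiation.

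**Figure D5:**
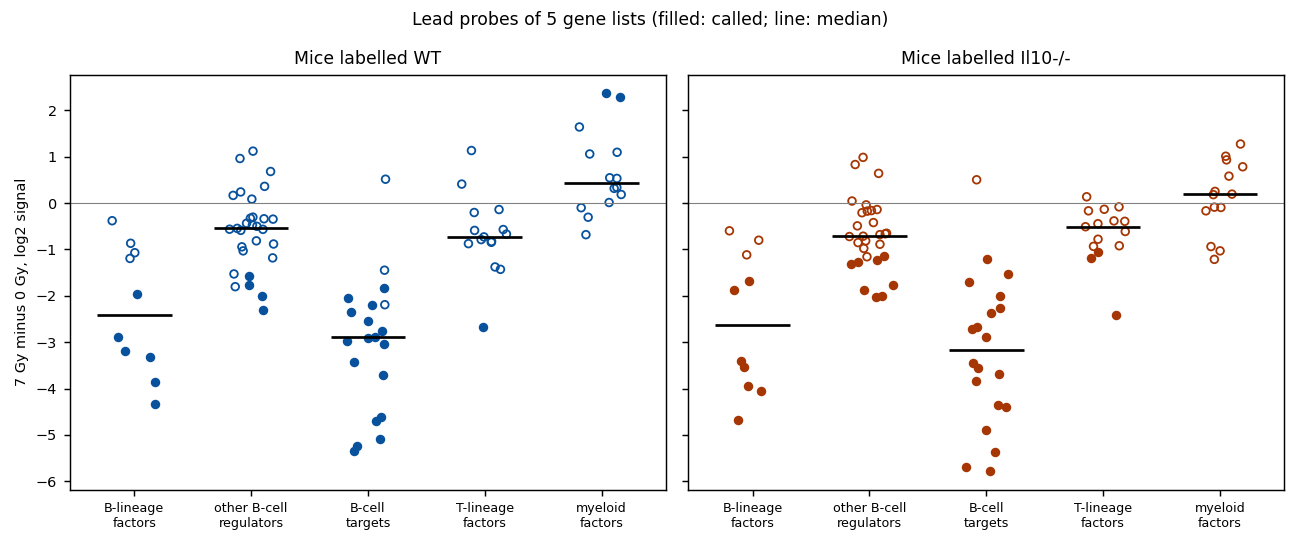
Difference between irradiated and unirradiated mice on the log2 scale (vertical axis) for the lead probes of the 10 factors and of 4 lists (horizontal axis), in WT (left) and Il10-/- mice (right). Points are genes, filled where called, and lines are medians. The medians of the factors, -2.42 and -2.64, lie nearest to those of their targets, -2.90 and -3.16. All lists were chosen with earlier results of these data known.

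The factors separate into groups by how their signals ran over the 20 arrays, measured as the mean absolute difference between 2 probes after each was centred on its own mean. As the 4 groups are part of these arrays, likeness includes the response to radiation. For Ebf1, Bcl11a, Bach2 and Pax5 it also includes signals that were mostly not well above background after irradiation. Pou2af1 and Spib were closest, at 0.26, then Pou2af1 and Bach2 at 0.32 and Spib and Bach2 at 0.35. Ebf1 was 0.43 from Spib, and Bcl11a 0.50 from Spib. Foxo1 lay 0.42 from Tcf4 and 0.45 from Ets1, and Ikzf3 lay nearest to Pax5, at 0.56, and 1.39 or more from Ebf1, Pou2af1, Spib, Bcl11a and Bach2.

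The gene nearest to each factor was then sought among 15739 others over the same 20 arrays. Spib was nearest to Cd79b, a chain of the B-cell receptor, at 0.18. Bcl11a was nearest to Tnfrsf13c, the receptor of the survival factor BAFF, at 0.26. For Ebf1, Pou2af1 and Bach2 the nearest was a probe of immunoglobulin transcripts, kappa at 0.37, lambda at 0.21 and delta at 0.27. The nearest gene to Foxo1 was S1pr1, the receptor by which lymphocytes leave lymphoid organs, at 0.19, and that to Ets1 was P2ry10, a lymphocyte receptor, at 0.19. Ikzf3 had Apc at 0.10, Tcf4 had Trit1 at 0.17, and Pax5 had Foxp3 at 0.32, none of which is a B-cell marker. The distances of Pax5, Ebf1, Bcl11a and Bach2 rest in part on irradiated signals not well above background.

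Promoters were read where RefSeq gave one (GRCm38.p6), since several factors moved together and some bind each other's genes. The table lists 7 of the 10 genes, Ebf1 with 2 starts, which gives 8 stretches of 250 bases before a start. On both strands, CCCNNGGG, the core bound by Ebf1, was in 2 of the 8 and in 11.8% of 32851 promoters of the same length. The letters GAGGAA, bound by Spib and its relatives, were in 1 of the 8 and in 23.3% of all, and TGGGAA, bound by Ikaros family factors, was in 2 of the 8 and in 21.6% of all. The octamer ATTTGCAT, to which Pou2af1 is recruited, was in 0 of the 8 and in 1.6% of all. The E-box CAGCTG of E proteins such as Tcf4 was also in 0 of the 8, against 13% of all. Likewise 0 of the 8 held the forkhead letters GTAAACA, against 3.17% of all, or the letters TGANTCA that Bach2 and its relatives bind, against 6.75% of all. The Spib and Foxo1 stretches are printed because they hold CCCNNGGG, which is in capitals; in Spib a pair of matches overlap by all but 1 base. A match of letters is a description and not a site of binding. Spib, which fell in both genotypes, lies at chr7:44532072-44532321 on the minus strand, and Foxo1, which fell less, at chr3:52268087-52268336 on the plus strand.
Spib: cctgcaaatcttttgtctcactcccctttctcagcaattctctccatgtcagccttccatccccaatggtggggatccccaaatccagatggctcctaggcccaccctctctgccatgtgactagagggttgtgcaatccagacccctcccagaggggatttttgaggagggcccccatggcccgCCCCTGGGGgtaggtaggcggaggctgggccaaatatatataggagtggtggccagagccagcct
Foxo1: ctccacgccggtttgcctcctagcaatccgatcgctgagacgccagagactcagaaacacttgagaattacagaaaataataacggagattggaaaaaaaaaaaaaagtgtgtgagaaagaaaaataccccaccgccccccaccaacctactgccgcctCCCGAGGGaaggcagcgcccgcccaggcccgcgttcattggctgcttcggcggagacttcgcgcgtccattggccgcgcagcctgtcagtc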

How the data were processed

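Blood RNA was globin-reduced, labelled with Cy3 and hybridised to 20 single-colour Agilent arrays. The deposited intensity is the background-subtracted and detrended signal per spot from Agilent Feature Extraction (10.7 per the labels, 12.0.2.2 per the file headers), with no scaling across arrays. A second deposited table of log2 values served as an alternative. It shifted the WT differences of the factors alike, except that of Ebf1, which was -3.67 there against -3.85. Here log2 of the intensity was averaged over the spots of a probe, without non-uniform outliers, and centred on the array's median over 39429 non-control probes. Following the study's methods, a probe marked on 25% or more of the arrays was removed, and one was kept if at least 20% of the arrays differed 1.5-fold or more from its median, leaving 18587 features. Groups were compared in limma 3.58.1 (R 4.3.3), after the steps were tested on simulated data; removed probes and ratios to markers by exact permutation tests. The 5 arrays of a group and the signal over background limit the precision.

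The named genes are the 10 factors with every probe, the gene nearest to each factor, the 3 largest rises and falls of each of the 4 related lists in each radiation comparison, and Cd3e, Siglech and S100a8; some genes that the rule takes in are not reported here; Il10 is named as a check of the labels, and Cd79b and other markers of the ratio after their values were seen. Markers of plasma cells, NK cells, monocytes, erythroid cells, platelets and heart muscle were also counted: called lower in WT and Il10-/- mice after 7 Gy were 0 and 1 of 3, 0 and 0 of 8, 1 and 2 of 7, 4 and 5 of 7, 0 and 0 of 6, and 0 and 0 of 7, and of 8 neutrophil markers 1 and 1. Members and lists were chosen with earlier results of these data known. Replicate numbers mark a slide; the deviations of same-numbered arrays from their group means correlated by -0.66 to 0.68, and in 0 of 6 pairs of groups did all 5 exceed 0.1, so the numbers were not taken to pair mice. Alternatives were other scalings, background corrections, filters, thresholds, probes and samples. Promoters are from RefSeq, GRCm38.p6.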

Additional observations from a re-analysis of the deposited data

Results flagged for a closer look

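In 2 of 64 sets of 5 arrays of 1 probe and group, 1 array stood apart from the other 4 by more than Dixon's 95% critical value, where chance marks about 1 in 20. Ikzf3 read 4.50 in replicate 4 of the unirradiated WT mice, with the next array at 2.99 and the lowest at 2.57. Without that array the difference between irradiated and unirradiated WT mice was -0.53 instead of -0.87, and neither was called. The second Ets1 probe, A_52_P232830, read 3.41 in replicate 5 of the unirradiated Il10-/- mice, with the next array at 4.36 and the highest at 4.64.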

How the results depend on the processing

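The directions after 7 Gy held for all 10 factors in both genotypes under every alternative and with each array left out, except that Tcf4 in WT was 0.33 after normexp. The number of factors called lower was 5 to 7 in WT and 7 to 8 in Il10-/- mice under every alternative other than normexp, with 0 and 0, and the addition of 50 to the intensity, with 3 in WT. With each array left out it was 5 to 6 and 7 to 8. After normexp with an offset of 50, 6 arrays had a median log2 signal of 7.26 to 9.64 and a 5th to 75th percentile span of 0.0767 to 0.900, against medians of 6.04 to 6.45 and spans of 0.526 to 2.06 on the other 14, so falls shrank by construction, in Bcl11a to -1.51 in WT. Adding 50 likewise shrinks falls to low signals and ended the WT calls of Ebf1 (-1.51), Bach2 (-1.27) and Ets1 (-1.48). With the slide as a replicate block the counts were 6, 7, 0 and 0 for the 2 radiation comparisons, the baseline and the interaction, as without it, and 0 factors changed call. The median difference of all features in WT after 7 Gy moved from -0.02 to -0.25 with 75th percentile scaling, and that of the baseline from 0.36 to between -0.04 and 0.14 with the 4 other scalings.

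Between unirradiated genotypes no direction is given, as uncalled differences changed sign: after 75th percentile scaling Pou2af1 -0.35, Foxo1 -0.011 and Tcf4 -0.21; after quantile scaling Pou2af1 -0.46, Foxo1 -0.13, Ets1 -0.040 and Tcf4 -0.27; with the reference array Pou2af1 -0.28 and Tcf4 -0.14; in the authors' table Pou2af1 -0.28 and Tcf4 -0.14; after normexp Spib 0.13 and Bach2 0.087; with 50 added Bcl11a 0.074 and Spib 0.12. With 1 array left out the ranges were Bcl11a -0.37 to 0.055, Pou2af1 -0.24 to 0.25, Tcf4 -0.18 to 0.31 and Spib -0.38 to 0.060.
The interaction changed sign likewise: Pax5 0.21, 0.19 and 0.49 and Bach2 0.16, 0.14 and 0.014 with 75th percentile scaling, the reference array and the authors' table; Ikzf3 -0.29 and Ets1 -0.80 after normexp; Pax5 0.063 and Ets1 -0.27 with 50 added; Ets1 -0.15 with replicates 1 and 2 averaged. Its ranges with 1 array left out were Ets1 -0.11 to 0.47, Pax5 -0.39 to 0.23, Ikzf3 -0.071 to 0.45 and Bach2 -0.40 to 0.22.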
